A study of Mus musculus with 2 samples.

Results

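Axon guidance ligands and receptors were examined in single cells of mouse dorsal skin. The genes were taken by symbol from the gene list of the files: every semaphorin (Sema), plexin (Plxn), ephrin (Efna, Efnb), Eph receptor (Epha, Ephb), Slit and Robo that carries only a number and letter code, together with Ntn1, Ntn4, Dcc, Unc5b, Unc5c, Nrp1 and Nrp2. This gave 65 of 32285 genes: 7 class 3 semaphorins, 13 other semaphorins, 9 plexins, 2 neuropilins, 8 ephrins, 14 Eph receptors, 7 Slits and Robos, and 5 netrins and netrin receptors. The study compared control skin with skin of a testosterone propionate (TP) model of androgenetic alopecia, the patterned hair loss that follows androgen exposure. Male C3H/HeN mice, 7 weeks old at the start and 9 weeks old at harvest, were shaved on the back and given vehicle or TP under the skin at 0.5 mg per day. Another group, which had TP and a neutralizing antibody to CXCL12, is not analysed here. Each condition was 1 droplet library from the pooled skin of 15 mice, digested with collagenase, so no difference has a replicate check, no test was made, and every interval below is a 95% interval for counting error only.

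Axon guidance proteins were first known for steering the growing tips of nerve fibres, and the same families act in vessels, epithelia and pigment cells. Secreted class 3 semaphorins bind neuropilins, which signal with plexins, while membrane semaphorins mostly bind plexins directly. Ephrins and Eph receptors signal between touching cells, Slits bind Robo receptors, and netrins bind Dcc, which mostly attracts, and Unc5 receptors, which mostly repel. The dermal papilla, a cluster of mesenchymal cells at the base of the hair follicle, directs the growth of the shaft and is a main androgen target in the follicle.

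After filtering, 39076 control and 18542 TP cells were kept, with medians of 2053 and 4859 unique molecular identifiers (UMIs, counted mRNA molecules) per cell. Clustering without the genes described here gave 15 named cell classes with at least 50 cells in each library. Schwann-like cells (61 control and 49 TP) and neutrophil-like cells (11 and 36) were also named. They fell short of 50 cells in a library, so they are not among the classes ranked below. Names rest on markers, and only 3 of 7 dermal sheath cup, 3 of 7 germinative layer and 3 of 8 outer bulge markers were highest in the class of that name in either library. Levels are UMIs per 1000000 UMIs of a class (CPM), and a gene is called higher or lower where the TP and control levels were at least 2-fold apart, with 0.5 UMI added and with no fewer than 50 UMIs over the pair of libraries. Inner root sheath markers outside their own cells differed between the libraries, and their source there was not tested. The summed level of 8 such markers in dermal papilla-like cells, which should lack them, was 2215 CPM in control against 448 CPM in TP, and in endothelium-like cells 3465 and 631 CPM. In each class, the share of these markers relative to all cells of the library gave the level at which any gene would stand if it were carried over in the same proportion. This is called the carry-over level below, and it was not estimated for inner root sheath-like cells, which make the markers. In TP suprabasal interfollicular epidermis-like cells the highest of the 8 markers gave 408.5 of 767.9 CPM. In TP dermal papilla-like cells it gave 114.3 of 447.7 CPM. Whether other classes make any of these markers themselves was not tested. Genes that span at least 100 kb held 19.5% of control UMIs and 15.9% of TP UMIs. Of the 65 genes, 31 (47.7%) are that long, beside 14.1% of all genes tested over all kept cells. The part of gene length or of the marker difference in the results was not tested.

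Of the 65 genes, 60 had at least 50 UMIs. Sema4f, Plxnb3, Epha10, Epha8 and Robo3 had fewer, and Robo3 had 3 UMIs in control and none in TP. The highest class was the same in both libraries for 38 of the 60 genes. In control, endothelium-like cells were highest for 10 genes, cortex-like cells for 6, and dermal papilla-like, outer bulge-like and germinative layer-like cells for 5 each. In TP, endothelium-like cells were highest for 12, dermal sheath cup-like cells for 7 and dermal papilla-like cells for 6. The interval of the highest class overlapped that of the second for 33 genes in control and 25 in TP, so many of these ranks cannot be read as an order.

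**Figure D1:**
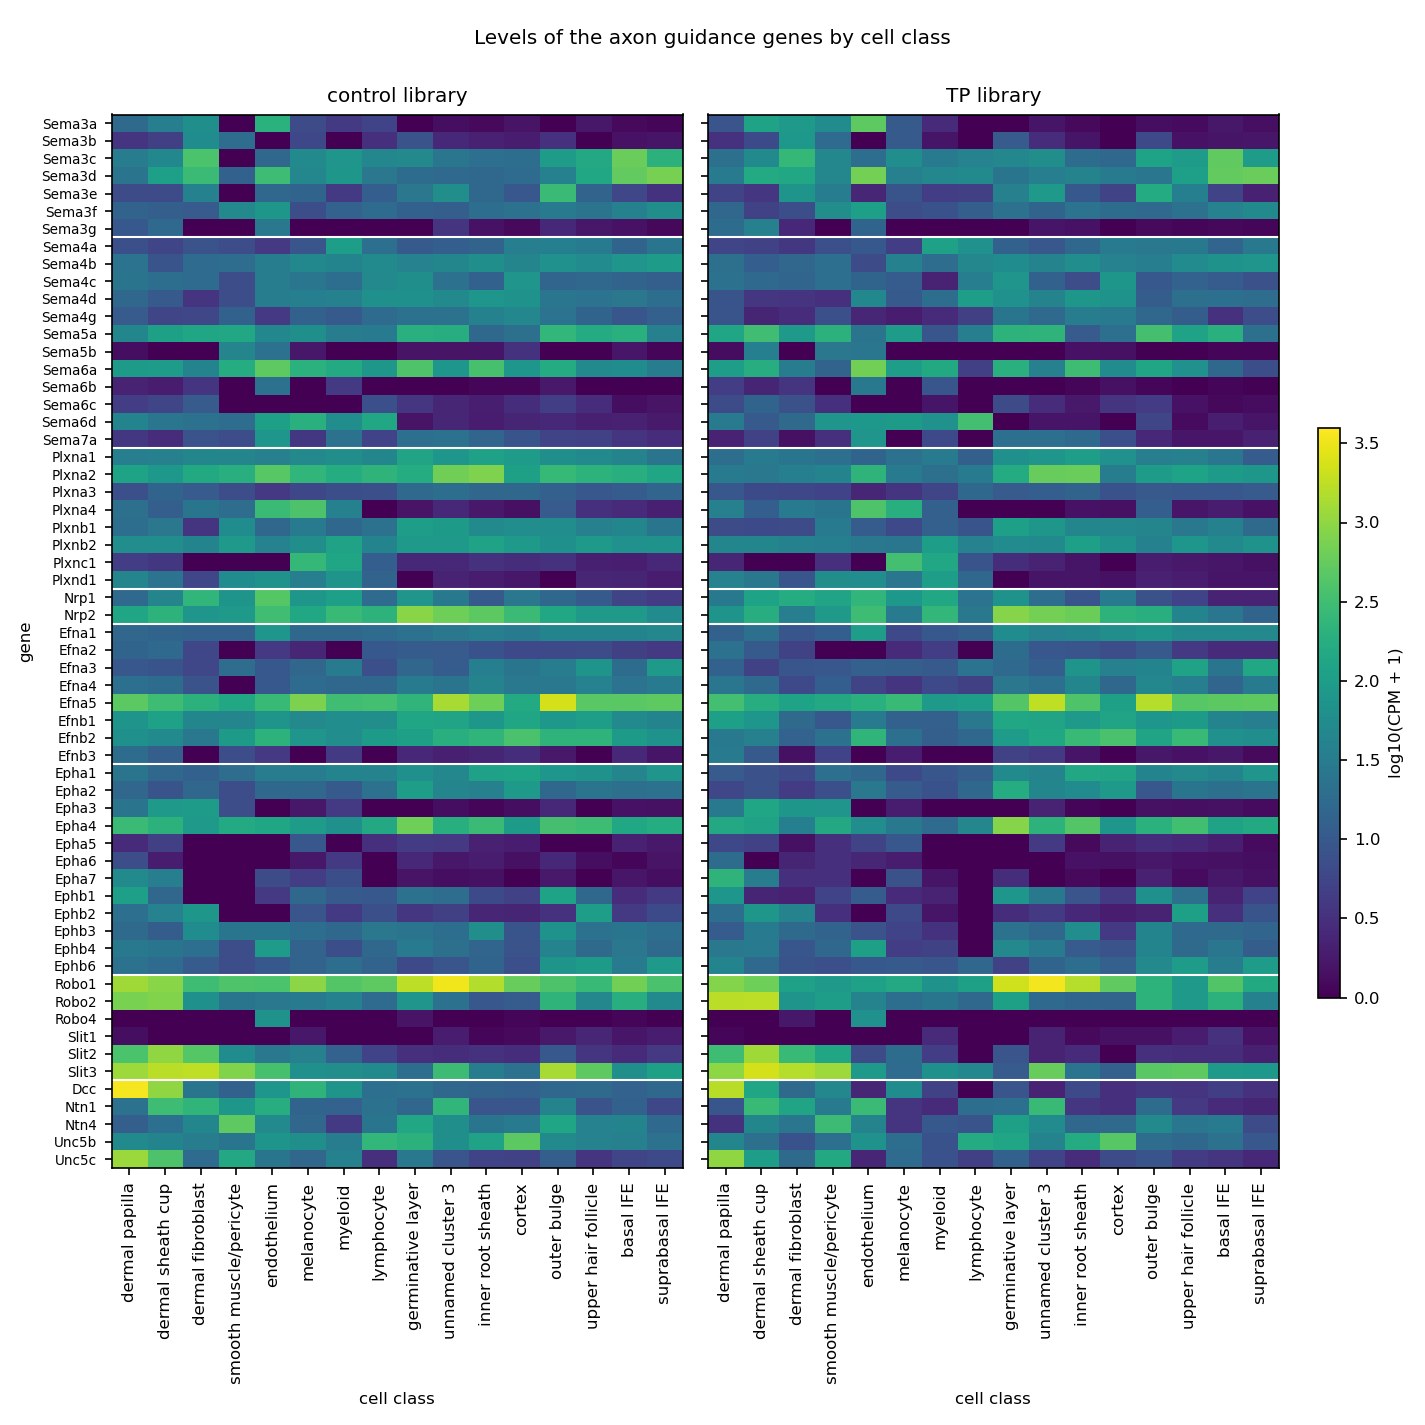
Levels of the 60 genes with at least 50 UMIs in the 15 named cell classes and in 1 unnamed cluster, in the control library (left) and the TP library (right). Rows are genes, white lines part the families, and colour is log10 of CPM + 1. Dcc and Unc5c are brightest in dermal papilla cells, Robo2 in dermal papilla and dermal sheath cup cells, and Robo4 in endothelium.

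Of the netrin receptors, Dcc and Unc5c were highest in dermal papilla-like cells. Dcc, the attractive netrin receptor, stood at 3537 CPM in control (interval 3503 to 3571) and 1631 CPM in TP (1606 to 1658), a ratio of TP over control of 0.461 (0.453 to 0.470). These cells held 93.7% of all Dcc UMIs in control and 96.2% in TP. The carry-over level was 180.1 CPM in control against 27.0 CPM in TP, far below both values. In dermal sheath cup-like cells, the mesenchyme that wraps the lower follicle, Dcc was at 1012 CPM in control and 132 CPM in TP, with a ratio of 0.130 (0.105 to 0.160). After each cell was thinned to 1000 UMIs, 80.4% of 3671 control and 53.8% of 1514 TP dermal papilla-like cells held a Dcc UMI, with 357 and 103 shallower cells left out. Before thinning, these shares were 84.9% and 72.6%, at median depths of 2448 and 4528 UMIs. In lymphocyte-like cells, taken as background with median depths of 1520 and 2212 UMIs, the thinned Dcc share was 5 of 213 control cells and 0 of 91 TP cells, which allows a share of up to 3.30%, taking 3 cells as the limit for a count of 0.

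The dermal papilla-like class was made of 3 clusters, and different clusters held most of it in each library. Cluster 9, led by Syt6, had 2400 control and 364 TP cells, cluster 11, led by Mc3r, had 1598 and 954, and cluster 25, led by Tnn, had 30 and 299. Dcc stood at 3108 CPM in control and 2710 CPM in TP within cluster 9. Within cluster 11 it was 3997 CPM in control against 1590 CPM in TP, a ratio of 0.398 (0.389 to 0.407). Within cluster 25 it was 413 CPM in control against 306 CPM in TP, both well below the other clusters. The intervals were apart in clusters 9 and 11, overlapped in cluster 25, where control had 21 UMIs, and only cluster 11 passed 2-fold. Under TMM factors, which rescale by the bulk of genes, the Dcc ratio over the class was 0.500, just short of the 2-fold limit. Papilla markers over the class also differed: Corin was at 2809 and 1455 CPM, Fgf10 at 1743 and 745 CPM and Rspo4 at 392 and 118 CPM. Rspo3, Fgf7 and Ndnf were also lower in TP, while Hhip, Notum, Wif1 and Sox2 were higher. The part of these shifts in the Dcc ratio was not tested.

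Unc5c, a repulsive netrin receptor, was also nearly all in the papilla, with 92.7% of its control UMIs and 93.4% of its TP UMIs in dermal papilla-like cells. Its level there was 1153 CPM in control against 998 CPM in TP, a ratio of 0.866 (0.843 to 0.889). Papilla clusters went different ways, with Unc5c ratios of 1.11 (1.05 to 1.18) in cluster 9 and 0.811 (0.785 to 0.837) in cluster 11. In dermal sheath cup-like cells it was 396 CPM in control against 103 CPM in TP, a ratio of 0.261 (0.202 to 0.334). Unc5b was highest in cortex-like cells of the hair shaft at 488 CPM in control and 456 CPM in TP, followed by the unnamed cluster 17 at 383 and 279 CPM and lymphocyte-like cells at 243 and 163 CPM.

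The netrin ligands were highest outside the papilla. Ntn1 was at 303 CPM in control and 275 CPM in TP in dermal sheath cup-like cells, and at 176 and 287 CPM in endothelium-like cells. It was also a leading gene of an unnamed cluster with Edar, Eda and Sox5, cluster 3, at 230 CPM in control and 268 CPM in TP. In dermal papilla-like cells Ntn1 stood at only 20.9 and 8.30 CPM, against carry-over levels of 12.5 and 4.34 CPM. Ntn4, a basement membrane netrin, was highest in smooth muscle or pericyte-like cells at 503 CPM in control (401 to 624) and 296 CPM in TP (248 to 350). In outer bulge-like cells, where Lgr5, Lhx2 and Sox9 were highest but Cd34, Krt15, Postn, Nfatc1 and Fgf18 were not, Ntn4 was 136 CPM in control against 51.9 CPM in TP, a ratio of 0.383 (0.322 to 0.457).

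In control, Slit2 and Robo2 were highest in dermal sheath cup-like cells, while Robo1 and Robo4 were highest elsewhere. In TP, Slit2 was again highest there, but the Robo2 interval overlapped that of dermal papilla-like cells. Slit2 was highest in dermal sheath cup-like cells at 1011 CPM in control and 1213 CPM in TP, a ratio of 1.20 (1.10 to 1.31). In dermal papilla-like cells Slit2 was lower, at 385 and 299.6 CPM. Slit3 was at 1714 CPM in control and 2350 CPM in TP in dermal sheath cup-like cells, a ratio of 1.37 (1.28 to 1.46), and at 1829 and 1589 CPM in dermal fibroblast-like cells. In outer bulge-like cells Slit3 was 1350 CPM in control against 483 CPM in TP, a ratio of 0.358 (0.339 to 0.378). Slit1, named after its values were seen, reached at most 2.24 CPM in any class.

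Robo2 was higher in TP in both follicle mesenchymal classes. In dermal papilla-like cells it stood at 754 CPM in control (739 to 770.0) and 1703 CPM in TP (1677 to 1730), a ratio of 2.26 (2.20 to 2.32). In dermal sheath cup-like cells it was 833 CPM in control against 1758 CPM in TP, a ratio of 2.11 (1.94 to 2.30). The ratio was 2.10 (1.98 to 2.215) within papilla cluster 9 and 2.11 (2.04 to 2.18) within cluster 11. Robo2 was thus higher in TP in each large cluster, and the cluster 9 interval reached just under 2. The thinned share of dermal papilla-like cells with a Robo2 UMI was 43.7% in control and 70.7% in TP, and 1.88% and 2.20% of lymphocyte-like cells. Before thinning, the shares in dermal papilla-like cells were 65.1% and 88.1%. Robo2 and Dcc both span more than 300 kb. In dermal papilla-like cells the 471 genes of at least 300 kb had a median log2 ratio of -0.06, beside -0.11 for all genes tested. The part of gene length in the ratios of Robo2 and Dcc was not tested.

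Robo1 was highest in the unnamed cluster 3 at 3306 CPM in control and 3468 CPM in TP, followed by germinative layer-like cells of the follicle base at 1721 and 2205 CPM. In dermal papilla-like cells it was 1203 CPM in control against 862 CPM in TP. Robo4, a receptor known from vessels, lay mostly in endothelium-like cells, with 88.5% of its control UMIs and 88.0% of its TP UMIs there, at 68.5 CPM (43.4 to 103) and 64.7 CPM (47.0 to 86.9). With equal weight for each cell, the TP level of Robo4 was 42.8 CPM.

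**Figure D2:**
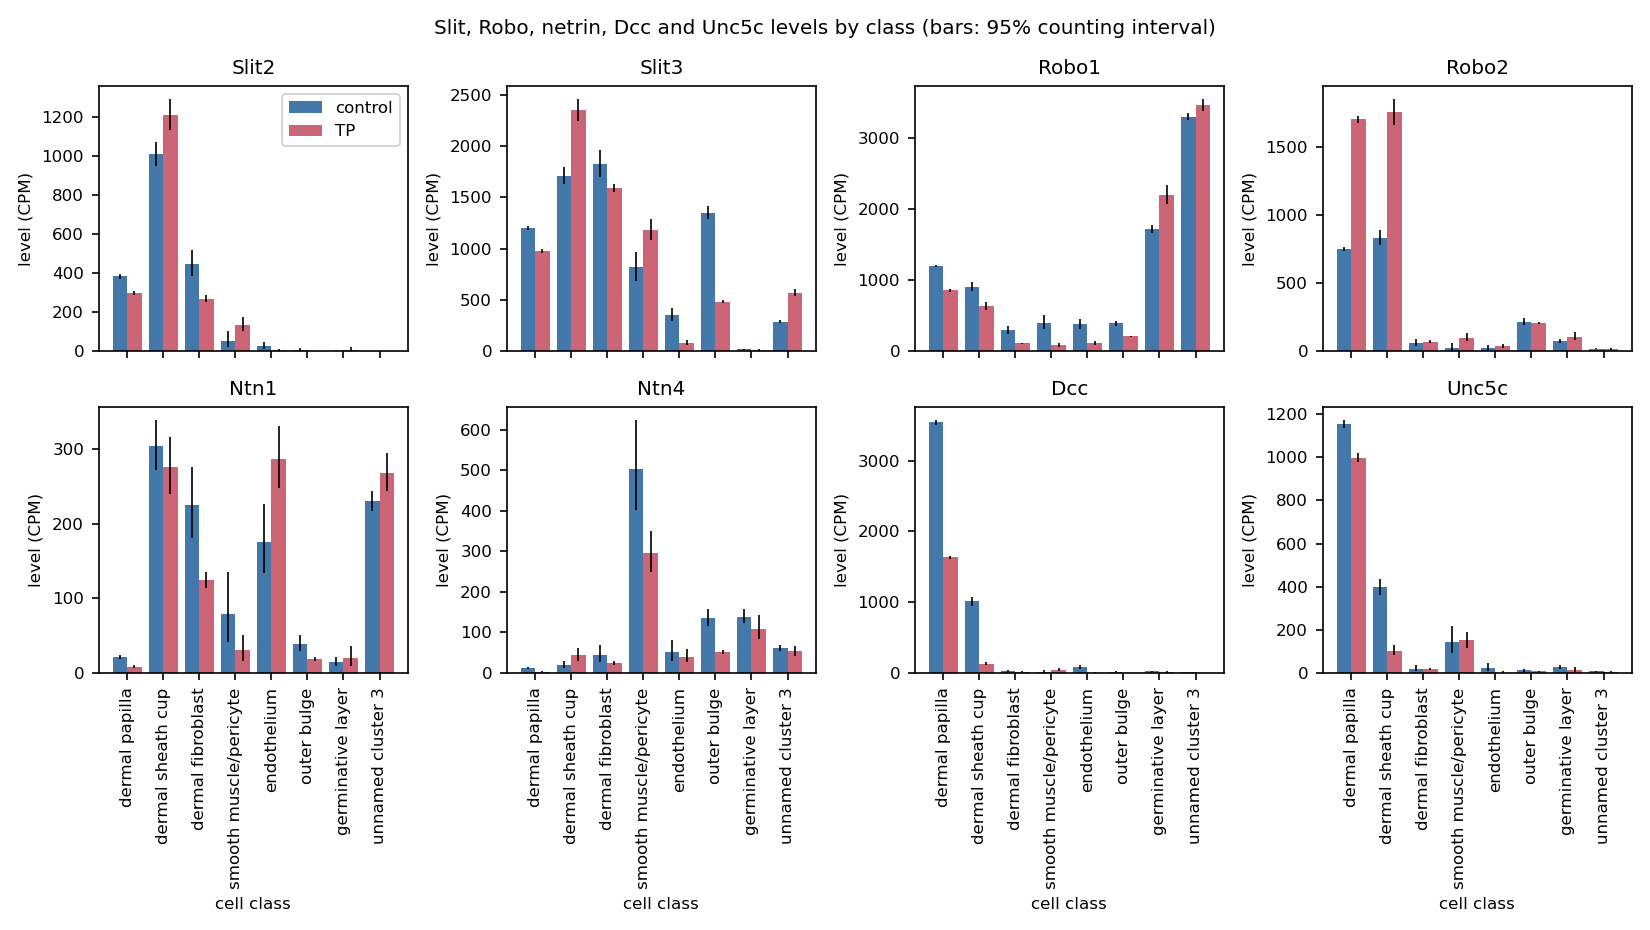
Levels in CPM (vertical axis) of 2 Slits, 2 Robos, 2 netrins, Dcc and Unc5c in 7 named classes and the unnamed cluster 3, in control (blue) and TP (red). Bars are the level of 1 library each, with its 95% counting interval. Robo2 is at 754 CPM in control and 1703 CPM in TP in dermal papilla cells, while Dcc is at 3537 and 1631 CPM.

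Over the dermal papilla-like class, 55 genes could be compared. Of these, 6 were at least 2-fold higher in TP, beside 4.19% of all genes tested in this class, and 10 were at least 2-fold lower, beside 8.32% of all genes. The median log2 ratio was -0.21 over the 55 genes and -0.11 over all genes tested. Ephb6, named after its values were seen, was also past 2-fold under TMM factors, with a ratio of 1.89 that became 2.05. Epha7, an Eph receptor that binds A-type ephrins, had the largest ratio, with 49.5 CPM in control (45.6 to 53.7) and 216 CPM in TP (207 to 226), a ratio of 4.36 (3.97 to 4.79). It was 36.2 and 118 CPM in cluster 9, 63.0 and 258 CPM in cluster 11, and 39.3 and 53.0 CPM in cluster 25, where control had 2 UMIs. The thinned share of cells with an Epha7 UMI was 4.74% in control and 18.1% in TP, and 0 of 213 and 0 of 91 lymphocyte-like cells, which allows up to 1.41% and 3.30% by the same limit of 3 cells. Before thinning it was 10.8% in control and 41.6% in TP. Epha7 in dermal sheath cup-like cells was 33.2 CPM in control against 32.2 CPM in TP.

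Sema5a, a membrane semaphorin, was at 44.3 CPM in control and 133 CPM in TP in dermal papilla-like cells, a ratio of 3.01 (2.71 to 3.34). Its ratio was 3.37 within cluster 11, while cluster 9 held 43.5 and 64.5 CPM. The control level was less than 2 times the carry-over level of 28.4 CPM, and the TP level stood beside 19.9 CPM. In dermal sheath cup-like cells Sema5a was 110.0 CPM in control against 313 CPM in TP, a ratio of 2.85 (2.27 to 3.59). The other genes that were at least 2-fold higher in dermal papilla-like cells were low. Epha5 was at 1.70 CPM in control and 5.07 CPM in TP. Epha6 at 6.2 and 17.6 CPM and Sema3g at 8.75 and 17.7 CPM were named after their values were seen.

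The bases just upstream of the start of Epha7, Sema5a and Robo2 are shown because these genes were higher in TP in dermal papilla-like cells and held the highest levels among those that were. They are from RefSeq (GRCm38.p6), 5′ to 3′ on the gene's strand, cut before the outermost start of the gene, and capitals mark the GC box GGGCGG on either strand, which overlaps itself in places. The Epha7 stretch is chr4:28812881-28813065 on the plus strand, 185 bases before a gene at chr4:28813066-28967503. The Sema5a stretch is chr15:32244563-32244812 on the plus strand, 250 bases before a gene at chr15:32244813-32696341. The Robo2 stretch is chr16:75447444-75447543 on the minus strand, 100 bases before a gene at chr16:73891976-75447443.
Epha7: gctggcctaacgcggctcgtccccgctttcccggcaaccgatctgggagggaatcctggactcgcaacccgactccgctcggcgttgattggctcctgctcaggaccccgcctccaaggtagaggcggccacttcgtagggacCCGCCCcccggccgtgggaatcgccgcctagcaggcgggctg
Sema5a: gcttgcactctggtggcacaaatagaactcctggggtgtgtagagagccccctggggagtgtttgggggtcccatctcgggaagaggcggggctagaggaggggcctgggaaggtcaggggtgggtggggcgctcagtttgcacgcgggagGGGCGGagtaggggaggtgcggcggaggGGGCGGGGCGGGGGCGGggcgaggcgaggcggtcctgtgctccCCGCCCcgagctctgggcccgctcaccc
Robo2: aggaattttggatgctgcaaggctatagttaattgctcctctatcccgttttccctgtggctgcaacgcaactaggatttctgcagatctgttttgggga

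The Epha7 stretch held 1 marked run, the Sema5a stretch 3 and the Robo2 stretch none, and their GC contents were 69.7%, 72.0% and 46.0%. In windows of 250 bases before each listed start, the GC box was found in 51 of 72 windows (70.8%) of 56 of the axon guidance genes and in 32.7% of 32851 windows of all genes. The half-site AGAACA, to which the androgen receptor can bind, was searched on both strands as well. It was in none of the 3 stretches shown, in 7 of the 72 windows (9.72%) and in 16.1% of all windows. A match is a description of letters and not a binding site.

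Of the 10 genes that were lower in dermal papilla-like cells, only Dcc and Sema3a stood at least 2 times over the carry-over level in control. Sema3a, a secreted repellent that binds neuropilin-1, was at 16.8 CPM in control and 7.87 CPM in TP there, a ratio of 0.468 (0.353 to 0.615), or 0.508 under TMM factors, which does not reach 2-fold. Cluster 11 held 190 of its control and 59 of its TP UMIs, at 32.6 and 8.54 CPM, and cluster 25 held 1 and 12. The other 8 were less than 2 times over the carry-over level in both libraries. Ntn1 was closest to that limit, at the levels given with the netrins. Plxna2, a plexin highest in inner root sheath-like cells in control, was at 121 CPM in control and 30.5 CPM in TP, beside carry-over levels of 152 and 32.7 CPM. Plxnb1 was at 18.8 and 5.60 CPM, beside 19.0 and 5.82 CPM. Ntn4 was at 11.3 and 2.37 CPM, beside 13.5 and 4.30 CPM. By contrast, Epha7 stood at 216 CPM in TP beside a carry-over level of 3.61 CPM.

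**Figure D3:**
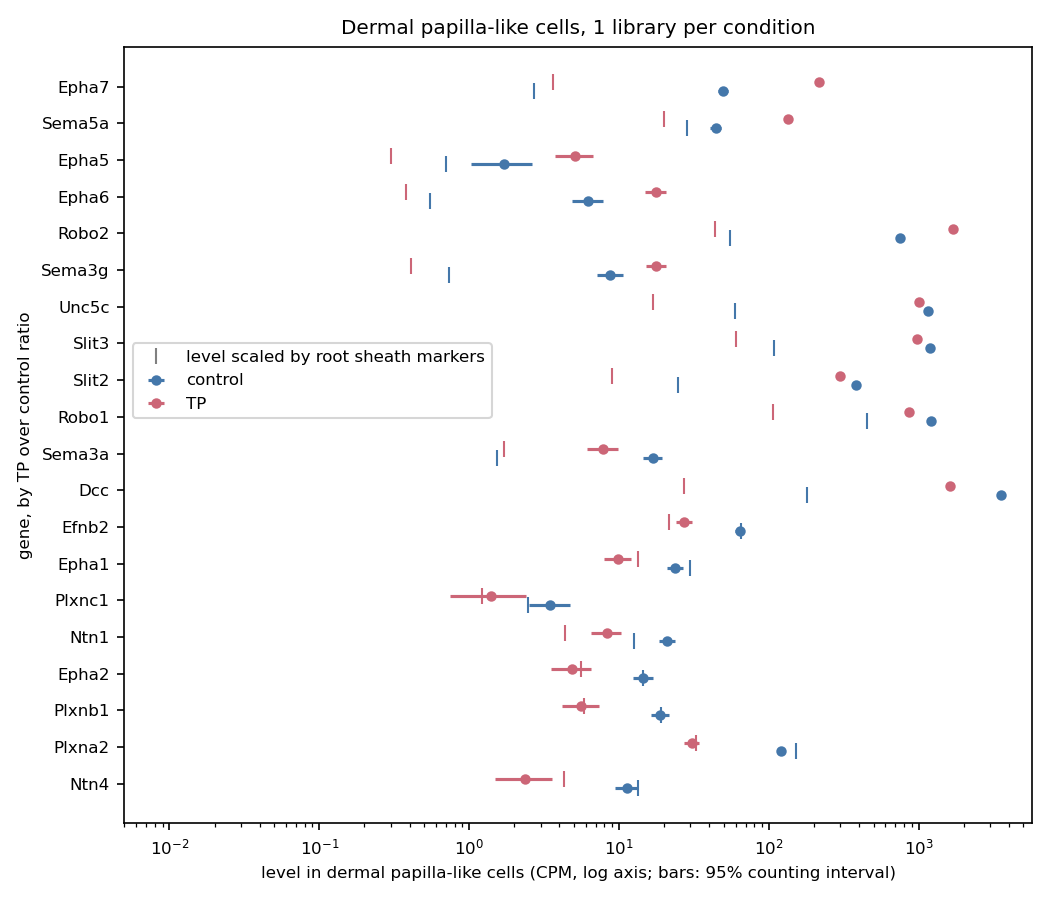
Levels in dermal papilla-like cells (horizontal log axis, CPM) of the 16 genes at least 2-fold apart and of Unc5c, Slit2, Slit3 and Robo1, in control (blue) and TP (red), ordered by ratio. Horizontal bars are 95% counting intervals, and vertical ticks are the carry-over levels (levels scaled by root sheath markers). Epha7 and Robo2 lie far right of their ticks, while Plxna2 and Plxnb1 lie on theirs.

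In dermal sheath cup-like cells, 6 of 26 genes passed 2-fold upward in TP, beside 3.96% of all genes, and 3 were at least 2-fold lower, beside 6.47%. All 6 were at least 2 times over the carry-over level in TP, and all but Ntn4 also in control. They were Sema3a, Sema5a, Nrp1, Ephb2, Robo2 and Ntn4, of which Ephb2 was named after its values were seen. Sema3a was at 33.2 CPM in control and 118 CPM in TP, a ratio of 3.56 (2.38 to 5.43), opposite to its direction in dermal papilla-like cells. Nrp1, the neuropilin that binds Sema3a, was at 42.7 CPM in control and 122 CPM in TP, a ratio of 2.87 (1.98 to 4.19). These values rest on 35 control and 88 TP UMIs of Sema3a and on 45 and 91 UMIs of Nrp1. Markers within the class also differed, and each was higher in TP. Acan was at 56.9 and 203 CPM, Col11a1 at 393 and 932 CPM and Acta2 at 562 and 1198 CPM in control and TP. Their part in the results of this class was not tested. The lower genes were Dcc, Unc5c and Plxna2, and Plxna2 was under its carry-over level in both libraries.

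Endothelium-like cells, with 126 control and 208 TP cells, held the highest Sema3a level. Markers within the class also differed: Flt1 was at 857 and 497 CPM, Vwf at 149 and 86.8 CPM and Cldn5 at 271 and 687 CPM in control and TP, and genes known from lymphatic vessels, such as Ccl21a, Mmrn1 and Flt4, were among its leading genes. Their part in the results of this class was not tested. Sema3a was 199 CPM in control (155 to 253) and 515 CPM in TP (462 to 572), a ratio of 2.58 (1.98 to 3.40). Thinned to 1000 UMIs, 12.5% of 96 control cells and 32.9% of 164 TP cells held a Sema3a UMI, with median depths of 1922 and 1740 UMIs before thinning, beside 1 of 213 control and 0 of 91 TP lymphocyte-like cells. Before thinning, 21.4% and 46.2% of endothelium-like cells did. Sema3d was at 301 CPM in control and 693 CPM in TP, a ratio of 2.30 (1.85 to 2.89). These 2 were the only ones of 21 genes at least 2-fold higher, beside 4.62% of all genes.

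The receptors of class 3 semaphorins in the same cells did not share this direction throughout. Nrp1 was 444 CPM in control against 230 CPM in TP, a ratio of 0.518 (0.411 to 0.652). With equal weight for each cell, Nrp1 was at 400.1 and 103 CPM, which is past 2-fold. Plxna4, a plexin that pairs with neuropilins, was 286 and 399 CPM, and the membrane ligand Sema6a 503 and 675 CPM. Slit3, Robo1, Epha4 and Plxna2 were the 4 genes at least 2-fold lower, beside 3.99% of all genes. Slit3 was at 354 CPM in control and 86.8 CPM in TP, with carry-over levels of 169 and 85.5 CPM, and Robo1 and Epha4 were below theirs in control. Plxna2 was at 467 and 221 CPM, beside 238 and 46.1 CPM, and its ratio of 0.472 was 0.521 under TMM factors. Sema3f at 80.4 and 107 CPM and Efna1 at 77.4 and 104 CPM were also highest here, and their intervals overlapped between libraries.

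In dermal fibroblast-like cells, with 110 control and 466 TP cells, none of 31 genes was at least 2-fold higher, beside 4% of all genes, and 9 were at least 2-fold lower, beside 8.88%. The libraries were spread differently over the 5 subclusters of this class: the subcluster led by Nova1 had 47 control and 54 TP cells, that led by Sult1e1 had 14 and 150, and that led by Fam180a had 2 and 59. Of the 9, Sema3d, Ephb2 and Ephb3 were at least 2 times over the carry-over level in both libraries. Sema3d was at 286 CPM in control and 142 CPM in TP, a ratio of 0.497 (0.407 to 0.611). Ephb3 was at 56.2 and 16.7 CPM, from 23 and 72 UMIs. Plxna2 at 151 and 34.7 CPM and Efnb1 at 44.0 and 16.7 CPM were under 2 times theirs. Within the Nova1 subcluster, Sema3d was at 367 and 149 CPM, and Ephb2 at 120 and 106 CPM with overlapping intervals. Under TMM factors the Sema3d ratio was 0.639 and the Ephb2 ratio 0.650, neither past 2-fold. In the other direction, Sema3e, at 36.6 and 72.4 CPM from 15 and 313 UMIs, had a ratio of 1.98 that became 2.54, past 2-fold. Sema3b, a secreted semaphorin, was highest here at 56.2 CPM in control and 81.4 CPM in TP, and Epha3 was at 95.3 and 80.7 CPM.

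In the interfollicular epidermis, Sema3c and Sema3d, both secreted semaphorins, stood well over the carry-over level in basal cells. Sema3c was highest in basal cells at 599 CPM in control and 525 CPM in TP. Sema3d was at 550.1 and 534 CPM in basal cells, and at 727 and 597 CPM in suprabasal cells. In suprabasal cells Sema3c was 202 CPM in control against 98.0 CPM in TP, a ratio of 0.485 (0.465 to 0.506), which was 0.620 under TMM factors. Efna3, a membrane-anchored ephrin, was at 86.0 CPM in control and 143 CPM in TP in suprabasal cells, a ratio of 1.66 (1.57 to 1.75), or 2.12 under TMM factors, which is past 2-fold.

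Without TMM factors, no gene was at least 2-fold higher in basal or suprabasal cells, beside 1.5% and 2.15% of all genes. In basal cells 8 of 40 were lower, beside 4.44% of all genes, and in suprabasal cells 14 of 44, beside 12.1%. None of the basal genes, led by Ntn1, Sema4g and Nrp2, was 2 times over the carry-over level in either library, and among the suprabasal genes only Sema3c was, in control. Dcc in suprabasal cells, for example, was at 15.3 CPM in control and 2.24 CPM in TP, beside carry-over levels of 159 and 46.2 CPM. Dcc was thus far below that level, so its UMIs were not spread in proportion to the root sheath markers, and the level is no estimate of carry-over for every gene. Nrp2 was at 54.4 and 13.5 CPM, beside 104 and 48.3 CPM, and Sema6a at 31.6 and 6.43 CPM, beside 57.2 and 23.3 CPM.

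In the follicle epithelium, Efna5, an ephrin that binds EphA receptors, was highest in outer bulge-like cells in control and in the unnamed cluster 3 in TP. It was 2351 CPM in control against 1557 CPM in TP in outer bulge-like cells, a ratio of 0.662 (0.637 to 0.689), and 1365 and 1813 CPM in cluster 3. Sema3e, a secreted semaphorin that binds Plxnd1 directly, was at 285 and 161 CPM in outer bulge-like cells. With equal weight for each cell, Sema3e was at 261 and 279 CPM there, so it was no longer lower in TP. In upper hair follicle-like cells it was at 13.1 and 34.7 CPM, a ratio of 2.64 (1.86 to 3.85). Of 40 genes compared in outer bulge-like cells, none was at least 2-fold higher, beside 3.51% of all genes, and 7 were lower, beside 4.81%, of which Slit3, Ntn1 and Ntn4 were at least 2 times over the carry-over level in control. Ntn1 was no longer past 2-fold under TMM factors. Unc5b was at 51.1 and 18.4 CPM there, beside carry-over levels of 58.8 and 11.3 CPM.

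Nrp2 and Epha4 were highest in germinative layer-like cells, and both were at 10 CPM or more in all 20 classes and clusters compared. In some of these they were under the carry-over level, as Nrp2 was in suprabasal cells. Epha4 in myeloid-like cells was at 62.7 CPM in control and 17.1 CPM in TP, beside carry-over levels of 94.0 and 39.9 CPM. Nrp2, the neuropilin that binds Sema3f, was 908 CPM in control against 896 CPM in TP, a ratio of 0.987 (0.888 to 1.10), followed by the unnamed cluster 3 at 632 and 701 CPM. Epha4, a receptor for ephrins of both types, was 630 CPM in control against 876 CPM in TP, a ratio of 1.39 (1.24 to 1.55). Epha2 was 104 and 167 CPM. Ephb1 was at 21.3 CPM in control and 77.7 CPM in TP from 40 and 39 UMIs, and Efna1 at 21.3 and 55.8 CPM, while Sema6a was at 408 and 193 CPM, a ratio of 0.474 (0.379 to 0.586). Efnb2 was highest in cortex-like cells at 364 CPM in control and 363 CPM in TP, and Efna1 there was at 29.7 and 59.3 CPM. Efnb1 ranged from 124 to 147 CPM between its leading classes, and Epha1 stood at 120 and 124 CPM in cortex-like cells.

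Among the plexins, Plxna2 was at 800.2 CPM in control and 599 CPM in TP in inner root sheath-like cells, where Plxna1 was at 114 and 99.1 CPM, Plxnb2 at 119 and 106 CPM, and the immune semaphorin Sema4d at 75.8 and 78.6 CPM. Plxnc1, a receptor of Sema7a, was at 252 CPM in control and 333 CPM in TP in melanocyte-like cells, and at 129 and 137 CPM in myeloid-like cells, where Sema4a was also highest at 103 and 113 CPM. Plxna4 in melanocyte-like cells was 387 CPM in control against 181 CPM in TP, a ratio of 0.468 (0.397 to 0.550), or 0.540 under TMM factors. Sema6d, a membrane ligand of plexins, was at 193 and 91.9 CPM in melanocyte-like cells, a ratio of 0.477 (0.378 to 0.599), or 0.550 under TMM factors, so neither gene then reached 2-fold. In lymphocyte-like cells Sema6d was instead 137 CPM in control and 330 CPM in TP, a ratio of 2.42 (1.73 to 3.39), from 63 and 87 UMIs.

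Melanocyte-like cells had the most genes at the lower end, 16 of 26, beside 11.1% of all genes, and none at least 2-fold higher, beside 5.18%. Plxna4 and Sema6d were the only ones of the 16 at least 2 times over the carry-over level in control. In TP, Sema4d, Plxna1, Plxnb2, Efna5, Dcc and Unc5b were as well. Robo1 was at 927 and 150 CPM, beside carry-over levels of 748 and 89.1 CPM, and Plxna2 at 235 and 28.4 CPM, beside 253 and 27.2 CPM. Root sheath markers in this class summed to 3690 CPM in control and 372 CPM in TP, with none of the 8 at 0 in control and 1 in TP. Long genes also moved here: genes of at least 300 kb had a median log2 ratio of -0.74 and genes under 20 kb one of 0.40. Plxna4 and Sema6d are both over 300 kb, and the part of gene length in their ratios was not tested.

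Over the 15 classes together, 468 gene and class pairs could be compared. Of these, 23 (4.91%) were at least 2-fold higher in TP, where 3.29% of all pairs were. Another 96 (20.5%) were at least 2-fold lower, where 6.4% of all pairs were. A gene counts again in each class, so the pairs are not separate observations. Plxna2, Robo1, Dcc and Nrp2 were each at least 2-fold lower in several classes. Outside inner root sheath-like cells, the 21 higher pairs were all at least 2 times over the carry-over level in TP, and 13 of them also in control. Of the 93 lower pairs, 16 were so in control, 22 in TP and 14 in both. The carry-over level was mostly higher in control, so a limit set in the library where a gene is higher is stricter for lower pairs than for higher ones. The median control level of the 93 was 0.870 times the carry-over level.

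**Figure D4:**
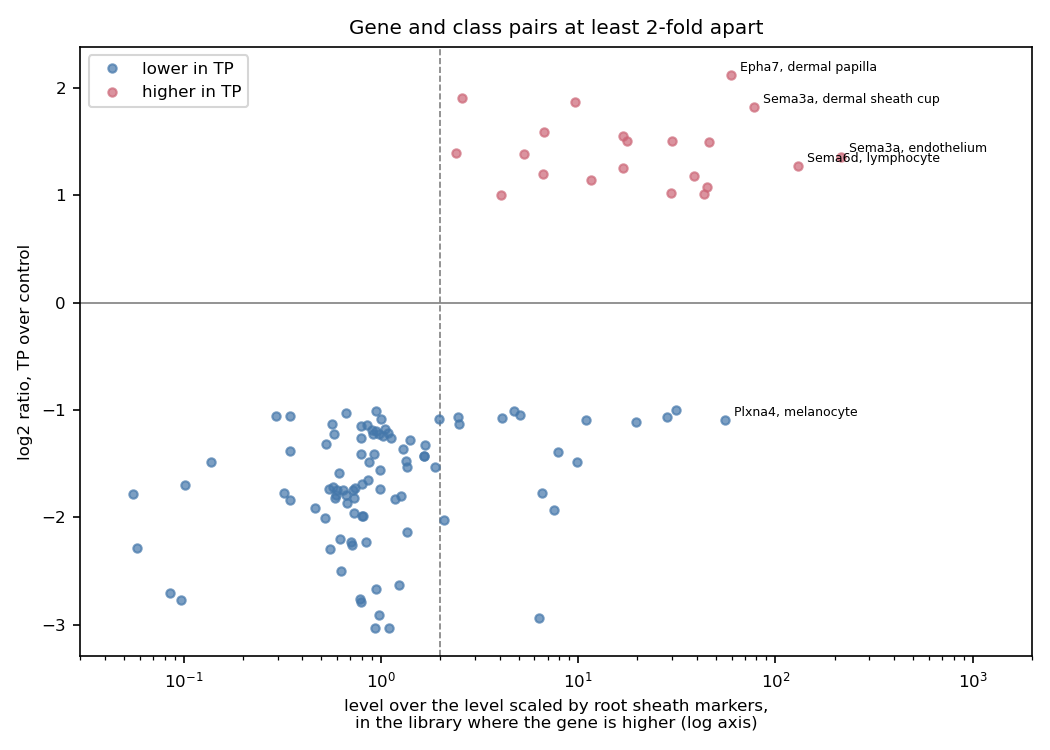
Log2 ratio of TP over control (vertical axis) against the level divided by the carry-over level in the library where the gene was higher (horizontal log axis), for the 114 gene and class pairs at least 2-fold apart outside inner root sheath-like cells. Each point is 1 pair, and the dashed line marks 2. The 21 higher pairs, set against the TP carry-over level, lie right of the line, and 77 of 93 lower pairs, set against that of control, lie left of it.

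Over all kept cells, 5 of 60 genes passed 2-fold upward in TP, beside 8.06% of all genes, and 9 were at least 2-fold lower, beside 10.6%. Under TMM factors these counts were 7 and 4, while both shares of all genes are without these factors. The median log2 ratio was -0.26 over the 60 genes and -0.24 over all genes tested. Epha7 led the higher genes with a ratio of 2.53 (2.32 to 2.77), followed by Efna3 at 2.40 and Sema3b at 2.24. Dcc led the lower genes at 0.283 (0.278 to 0.288), followed by Unc5b at 0.375 and Sema6a at 0.395. The libraries held different shares of the classes: inner root sheath-like cells were 19.1% of control and 6.28% of TP cells, and suprabasal epidermis-like cells 9.87% and 26.4%. Ratios were also taken with the shares of the 42 clusters and subclusters, not of the classes, held the same in both libraries. With the cluster shares of control, only Epha7 was at least 2-fold higher, at 3.46, and none was at least 2-fold lower. With the cluster shares of TP, Epha7 was at 3.41 and Dcc at 0.443, still more than 2-fold lower. With those of control, Dcc was at 0.584, Nrp2 at 1.00, Robo1 at 0.936, Sema3b at 0.955 and Robo2 at 1.84.

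**Figure D5:**
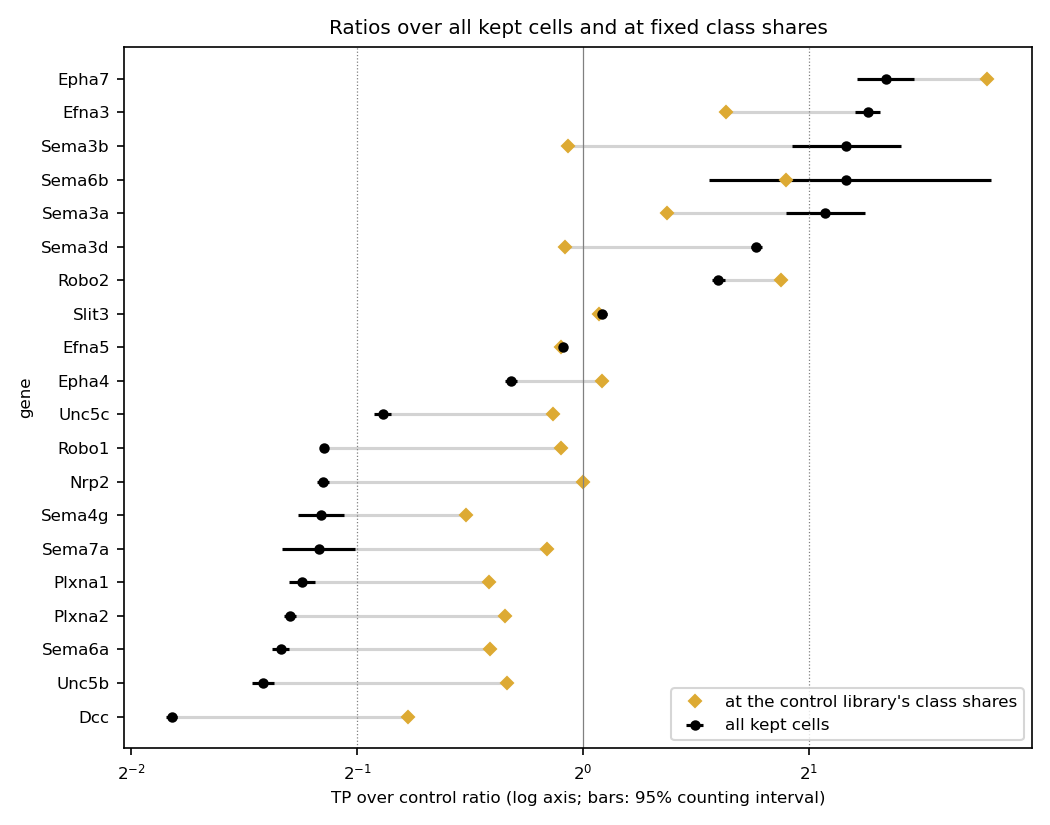
Ratio of TP over control (horizontal log axis) for the 14 genes at least 2-fold apart and 6 others. Black points are over all kept cells, with 95% counting intervals. Yellow diamonds, labelled class shares, use the control library's shares of clusters and subclusters in both libraries. Dotted lines mark 2-fold. Epha7 moves from 2.53 to 3.46, and Robo1 from 0.451 to 0.936.

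Of 48 other genes of these pathways (coreceptors, signalling partners and further ligands), 45 could be compared over all cells. Of the 45, 1 was at least 2-fold higher and 4 lower, beside 8.06% and 10.6% of all genes. Under TMM factors the counts were 4 and 3, and shares of all genes with these factors are not given here. Ngef, an exchange factor for EphA receptors, was higher at 1.05 and 2.17 CPM. Srgap3 and Mical3, which act below Robos and plexins, and the netrin-G Ntng2 led the lower genes. In dermal papilla-like cells 3 of 39 were higher and 6 lower, beside 4.19% and 8.32% of all genes. Unc5d, a further netrin receptor, was at 2.46 CPM in control and 15.3 CPM in TP, a ratio of 6.21 (4.14 to 9.61). Draxin, a secreted ligand of Dcc, was at 63.7 and 133 CPM, a ratio of 2.09 (1.91 to 2.29), and Sdcbp, an ephrin-B adaptor, at 44.6 and 120 CPM. Vav3, an exchange factor used by Eph receptors, was at 405 CPM in control and 162 CPM in TP, a ratio of 0.399 (0.376 to 0.423), and Mical2 and Ntng2 were lower at ratios of 0.329 and 0.380. Among dermal sheath cup-like cells 2 of 23 were higher and 3 lower, beside 3.96% and 6.47%, and in endothelium-like cells 2 of 19 and 1, beside 4.62% and 3.99%. Flrt2, a ligand of Unc5 receptors, was higher in both, at 154 and 392 CPM in dermal sheath cup-like cells and at 95.3 and 228 CPM in endothelium-like cells. The counts of higher and lower genes were 0 and 8 of 31 in dermal fibroblast-like cells (4% and 8.88% of all genes), 2 and 3 of 31 in outer bulge-like cells (3.51% and 4.81%), 0 and 7 of 37 in suprabasal cells (2.15% and 12.1%) and 2 and 9 of 26 in melanocyte-like cells (5.18% and 11.1%).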

How the data were processed

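Single-cell RNA libraries (3′ v4 droplet chemistry) of the control and TP groups were used, 1 per group. The authors ran Cell Ranger 8.0.1 on mm10, per the labels, and the deposited values are whole-number counts of UMIs per gene and barcode, without normalization. Whether intronic reads were counted is not given in the sources used here. The control file held 45709 barcodes and 130999979 UMIs, the TP file 25931 and 166929585, and 303 barcodes occur in both. The authors' limits were applied: 200 to 8000 genes and at most 10% mitochondrial counts, where the mitochondrial limit left out 3465 control and 5871 TP barcodes. Doublets were called with a rewritten DoubletFinder procedure (25% artificial doublets, nearest 1%), and 7.5% of barcodes were removed per library.

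Seurat 5.3.0 integrated both libraries by reciprocal PCA on 2000 variable genes, without the 65 genes and the 48 pathway genes, and clustered at resolution 1. Of 29 clusters, 2 were clustered again. A cluster took the class with the highest marker score, if it reached 1.25 with at least 3 markers detected. No rival class could lead it in listed markers among its 10 leading genes. A cluster with none of its own markers there stayed unnamed if its median depth was under 1/3 of the median of either library. This left out cluster 0 (4503 control and 300 TP cells) and subcluster 20.5 (45 and 53). These limits were set after the clusters were seen. Cluster 18 was named inner root sheath at a score of 1.291, with no listed marker of that class among its 10 leading genes. Those genes included Krt82, Krtap24-1 and Vsig8. Whether its 969 control and 295 TP cells belong to another class was not tested. In all, 13291 control and 2591 TP cells stayed unnamed. UMIs were summed per class in Python 3.11.15 (numpy 2.4.6, scipy 1.17.1, pandas 2.3.3). Intervals are exact: Poisson for levels, Clopper-Pearson for shares and conditional binomial for ratios. The limit for a share of 0 is 3 cells of the total. edgeR 4.0.16 gave TMM factors only. The carry-over level was added after seeing the data. The ratio script was tested on simulated data.

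Genes named are those reaching 50 CPM in some class, at most 5 per family, and up to 3 with the largest ratios in each direction in a class, at least 2-fold apart. The members and lists were chosen with earlier results of these data known.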

Additional observations from a re-analysis of the deposited data

Results flagged for a closer look

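Genes were picked where the ratio of TP over control was at least 2-fold higher in 1 class and at least 2-fold lower in another. Counting intervals had to be clear of 1. Levels had to be at least 2 times over the carry-over level in the library where the gene was higher. With 1 library per condition, the difference between classes was not tested. Sema3a was at 3.56 in dermal sheath cup-like and 2.58 in endothelium-like cells, and at 0.468 in dermal papilla-like cells. Sema3d was at 2.30 in endothelium-like and 0.497 in dermal fibroblast-like cells. Sema6d was at 2.42 in lymphocyte-like and 0.477 in melanocyte-like cells. Ephb2 was at 2.04 in dermal sheath cup-like and 0.506 in dermal fibroblast-like cells, where it was called lower only with the 0.5 UMI added. Under TMM factors, the lower values of Sema3a (0.508), Sema3d (0.639), Sema6d (0.550) and Ephb2 (0.650) did not reach 2-fold. Ntn4 was at 2.23 in dermal sheath cup-like cells, from 21 and 33 UMIs, and at 0.383 in outer bulge-like cells. In control dermal sheath cup-like cells Ntn4 was under 2 times the carry-over level, at 19.9 CPM beside 11.95 CPM.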

How the results depend on the processing

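No paired analysis was possible because each group is 1 library. Leaving out a library was not possible for the same reason. Over all kept cells, 5 genes were higher and 9 lower. TMM factors gave 7 higher and 4 lower, and equal weight for each cell 8 higher. The cluster shares of control gave 1 higher and 0 lower, and those of TP 1 and 1. Among pairs within classes, where 23 were higher and 96 lower, a minimum of 20 UMIs gave 38 and 158. A minimum of 200 UMIs gave 13 and 48. The carry-over limit, added after seeing the data, was set in the library where a gene was higher. Outside inner root sheath-like cells, which have no such level, it left 21 of 21 and 16 of 93. It is stricter for lower pairs, and when required in both libraries it left 13 of 21 and 14 of 93. Among dermal papilla-like cells, where 6 were higher and 10 lower, cluster 9 alone, also added later, gave 3 and 9, and cluster 11 alone 9 and 10. For the other pathway genes, 1 higher over all cells became 4 with TMM factors and 6 with equal weight, and within classes 17 higher and 55 lower became 9 and 25 at a minimum of 200 UMIs, and 23 and 40 with TMM factors. Fewer genes are tested at a higher minimum. For the other changes the cause was not tested. Shares of all genes called under the other settings are not given here, so these counts cannot be set against them. Dcc in dermal papilla-like cells was at 0.500 with TMM factors, at the 2-fold limit. The highest named class was kept by 51 to 58 of 60 genes under the other clusterings, weights and cell minimum. Of 74 levels in leading classes, 30 moved beyond their counting interval with equal weight per cell and 1 among cells of at least 1000 UMIs. Of 68 thinned shares of cells with a UMI, 61 moved beyond their interval when thinned to 2000 UMIs.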
